A study of Mus musculus with 4 samples.

Results

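Aminoacyl-tRNA synthetases are the enzymes that join each amino acid to its tRNA, and 36 genes encoding them were followed here, by a list of gene names, in mouse fibroblasts after a pulse of hydrogen peroxide. Of the 36 genes, 20 encode cytosolic enzymes and 16 encode enzymes of the mitochondrial matrix, out of 27431 gene names on the array. Mammalian cells keep both sets in the nuclear genome, since mitochondria translate their own small set of respiratory chain proteins with their own tRNAs. Many cytosolic synthetase genes are known targets of ATF4, the transcription factor that is made when the integrated stress response slows general translation, and which turns on genes for amino acid supply. The mitochondrial synthetases work beside mitochondrial elongation factors and tRNA-modifying enzymes, and the cytosolic ones beside the elongation factors of the cytosol.

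The cells were NIH-3T3:Per2-Luc, a mouse fibroblast line carrying a luciferase reporter driven by the *Per2* promoter, and every array held RNA of this line. In 3 samples the cells had received 5 mM H2O2 for 10 min, a critical oxidative stress called cOS-pulse in the study, and RNA was taken 4 h, 20 h or 32 h later. The control sample had 0 mM H2O2 and an exchange to fresh medium, and its label gives 4 h. There was 1 one-color array for each of the 4 conditions and all 4 were on 1 slide, so no statistical test was possible and no p-value is given. The same control array served for every time point, and untreated cells at 20 h or 32 h were not analysed here.

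All values are log2 signals after subtraction of the 75th percentile of the array, called scaled log2 signals below, and log2 ratios are differences of these signals between a time point and the control. The error printed with a log2 ratio is that of the scanner software for the spots (0.20 to 0.24 for the genes measured here at 4 h), and it does not cover differences between cultures. A gene counted as higher or lower when its brightest array element differed at least 1.5-fold, and a value is given for a difference below that without a call. Of the 39429 elements on the array, 52.7% to 59.1% were well above background. Of the 36 synthetase genes, 35 were well above background on all 4 arrays, and *Nars2*, for mitochondrial asparaginyl-tRNA synthetase, was not well above background on any. All 8 listed fibroblast markers were well above background on every array, and at 4 h 7 of them lay below the control by more than the spot error, with a median log2 ratio of -0.44 (range -1.35 to 0.05). Of 4 epithelial markers, *Epcam*, *Krt18* and *Cdh1* were not well above background on any array, whereas *Krt8* was on all 4 and had a log2 ratio of 1.17 ± 0.21 at 4 h. All 3 endothelial markers were above background in the control and lay above it at 4 h, with a median log2 ratio of 0.71 (range 0.36 to 1.87). Of 3 leukocyte markers, *Ptprc* was near background on all 4 arrays, and *Cd68* and *Cd3e* had log2 ratios of 2.08 ± 0.21 and 0.25 ± 0.21 at 4 h. The part of these marker genes in the results was not tested, and in RNA of whole cultures fewer cells of a type and less RNA per cell cannot be told apart.

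At 4 h after cOS-pulse, the cytosolic synthetase genes lay mostly above the control and the mitochondrial ones mostly below it. The median log2 ratio was 0.60 over the 20 cytosolic genes (range -1.11 to 1.83) and -0.86 over the 15 mitochondrial genes with a ratio (range -1.46 to 1.59), a difference between the medians of 1.46. Over all genes the median was 0.15. Of the cytosolic genes 17 were above the control and 3 below, and 14 and 2, respectively, differed by more than the spot error. Of the mitochondrial genes 3 were above and 12 below. Of all 14672 genes with a measured ratio, 8671 were above and 6001 below. Of these, 6658 and 4471, respectively, differed by more than the spot error.

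With the 1.5-fold threshold, 10 of the 20 cytosolic genes (50%) were higher at 4 h, beside 24.5% of all genes with a ratio or a bound. Only *Mars* was lower (1 of 20, or 5%), beside 17.1% of all genes. Among the mitochondrial genes, 9 of 15 (60%) were lower and 2 (13.3%), *Mars2* and *Yars2*, were higher. At 2-fold, 4 cytosolic genes were higher and 1 lower and 1 mitochondrial gene was higher and 4 were lower, beside 11.3% of all genes higher and 8.73% lower.

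**Figure D1:**
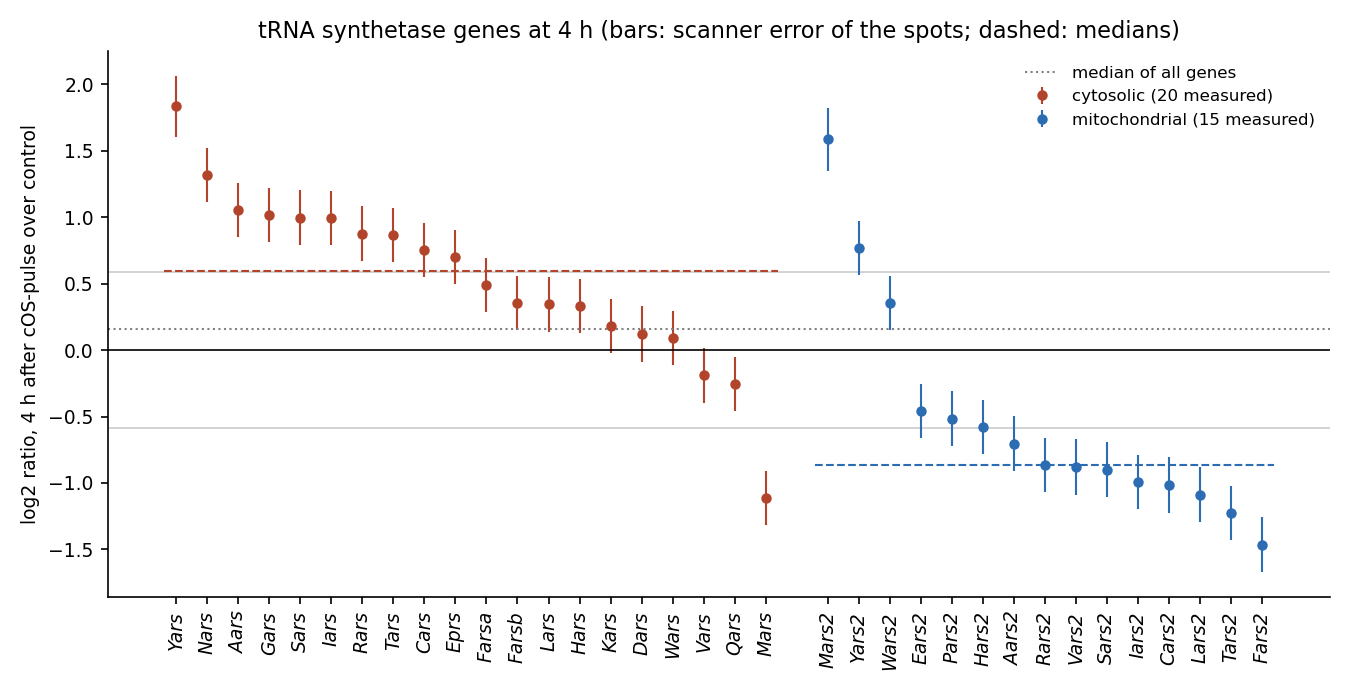
Log2 ratio of each synthetase gene at 4 h over the control (vertical axis), with the cytosolic genes at the left and the mitochondrial genes at the right, each sorted by value. Bars are the scanner error of the spots, dashed lines the group medians (0.60 and -0.86), the dotted line the median of all genes (0.15) and grey lines the 1.5-fold threshold. Most red points lie above 0 and most blue points below it, with *Mars* and *Mars2* far out on the other side.

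The position of the zero line depended on the scaling between arrays. Apart from quantile normalization, each scaling moves all genes of an array by 1 amount, so it cannot change the distance between both compartments. With the 8 spike-in controls as the scale, the median of all genes at 4 h was -0.25, that of the cytosolic genes 0.19 with 6 higher and 3 lower, and that of the mitochondrial genes -1.27 with 1 higher and 12 lower. Scaling by the median of the array gave -0.21 for all genes, 0.23 for cytosolic and -1.23 for mitochondrial genes. Over all genes past the threshold, the share that was higher at 4 h was 59.0%, and it was 30.2%, 45.6%, 48.5%, 27.6% and 36.1% with scaling by the median, quantile normalization, the 75th percentile of elements detected on all arrays, the spike-in controls and no scaling. Relative to the median of all genes, the cytosolic median was 0.44 and the mitochondrial median -1.02. The difference between the medians lay between 1.24 and 1.46 under all settings tried, and it was 1.28 with quantile normalization.

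**Figure D2:**
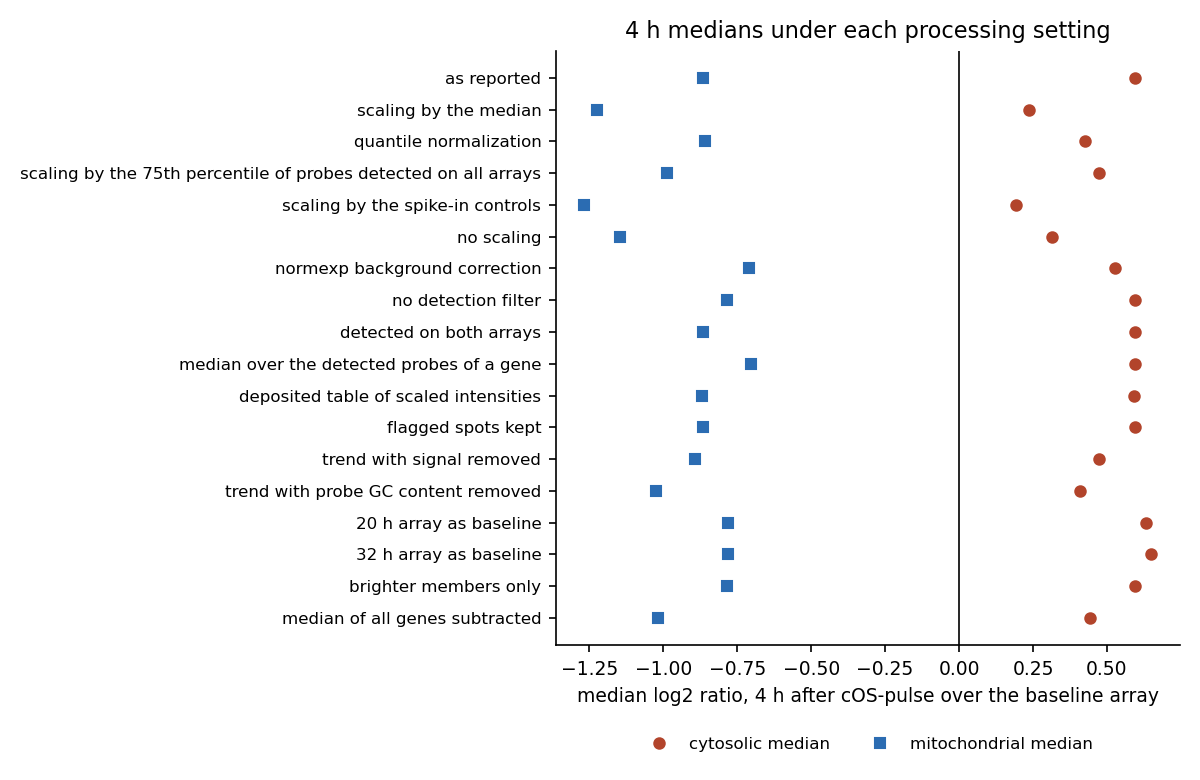
Median log2 ratio at 4 h of the cytosolic (circles) and mitochondrial (squares) synthetase genes under each processing setting, 1 setting per line. All cytosolic medians lie between 0.19 and 0.65 and all mitochondrial medians between -1.27 and -0.70, so that the groups of points do not meet. Scalings other than quantile normalization shift both medians by the same amount.

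The largest ratio at 4 h was that of *Yars*, which encodes tyrosyl-tRNA synthetase (element at chr4:128896792-128896851 in mm9, plus strand). Its scaled log2 signal was -3.16 in the control, -1.33 at 4 h, -3.53 at 20 h and -3.40 at 32 h. It was thus 3.57-fold higher at 4 h (log2 ratio 1.83 ± 0.23), and the 4 h array stood above the 3 others. At 20 h it lay below the control by more than the spot error (-0.37 ± 0.25), and at 32 h within that error (-0.24 ± 0.26). *Yars* was dim in the control, where the median of detected elements was -0.26 and the lowest detected signal -4.76. Of the measured synthetase genes only *Mars2* was dimmer there. *Nars*, for asparaginyl-tRNA synthetase, had signals of 1.25, 2.57, 1.0 and 1.12 on the control, 4 h, 20 h and 32 h arrays, a log2 ratio of 1.32 ± 0.20 at 4 h. Its 4 h value likewise stood alone.

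4 further cytosolic genes were at or near 2-fold higher at 4 h. *Aars*, for the alanine enzyme, went from 2.88 in the control to 3.93 at 4 h and was 2.86 at 20 h and 2.94 at 32 h, and its log2 ratio at 4 h was 1.05 ± 0.20. *Gars*, for the glycine enzyme, had signals of 4.71, 5.73, 4.49 and 4.51 on the same 4 arrays and a log2 ratio of 1.02 ± 0.20. It is 1 of the 2 genes of the list that give both the cytosolic and the mitochondrial enzyme, and the other, *Kars* for lysine, had a log2 ratio of only 0.18 ± 0.20. *Sars*, whose product charges serine tRNA and also the selenocysteine tRNA, had signals of 3.51, 4.50, 3.68 and 3.65 and a log2 ratio of 1.0 ± 0.20. *Iars*, for the isoleucine enzyme, had signals of 2.32, 3.31, 2.05 and 1.99 and a log2 ratio of 1.0 ± 0.20. In each of these genes the 4 h array stood above the 3 others.

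The 4 remaining cytosolic genes past the threshold were 1.63-fold to 1.84-fold higher at 4 h. *Rars*, for the arginine enzyme, had signals of -0.07, 0.81, -0.43 and -0.62 and a log2 ratio of 0.88 ± 0.20. *Tars*, for the threonine enzyme, had signals of 3.65, 4.51, 3.46 and 3.41 and a log2 ratio of 0.86 ± 0.20. *Cars*, for the cysteine enzyme, stood at 3.74, 4.49, 4.03 and 3.92, so that its 20 h and 32 h values lay between the control and 4 h, and its log2 ratio at 4 h was 0.75 ± 0.20. *Eprs* encodes 1 protein with the enzymes for glutamate and proline, and its signals were 1.12, 1.82, 0.96 and 0.90 with a log2 ratio of 0.70 ± 0.20.

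ATF4 binds composite sites, often called C/EBP-ATF response elements, and the promoter windows of the synthetase genes were searched for the form TGATGNAA on both strands. The windows reached from 250 bases before to 50 bases after the annotated start of each gene (RefSeq, GRCm38.p6), and they were given for 13 cytosolic and 14 mitochondrial genes. The genes without one were *Cars*, *Hars*, *Lars*, *Nars*, *Rars*, *Vars*, *Wars*, *Hars2* and *Pars2*. The motif was in the windows of 5 of the 13 cytosolic genes (38.5%) and of 0 of the 14 mitochondrial genes, and in those of 1219 of all 27025 genes with a window (4.51%). Of all 32851 windows 3.97% held it. A match is a description of these letters and not evidence of a bound site.

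The 5 genes with a match were *Aars*, *Gars*, *Iars*, *Tars* and *Yars*, and all had log2 ratios between 0.86 and 1.83 at 4 h. The stretches around the matches are shown because they hold the motif, which is in capitals as it reads on the strand of the gene, and *Tars2* is added as the mitochondrial partner of *Tars* without a match. The stretches of *Aars* (chr8:111033712-111033791, plus strand), *Gars* (chr6:55037921-55038000, plus strand), *Tars* (chr15:11399659-11399738, minus strand) and *Tars2* (chr3:95754978-95755057, minus strand) lie before the start, and those of *Yars* (chr4:129189895-129189924, plus strand) and *Iars* (chr13:49682126-49682155, plus strand) span it, all in GRCm38.p6 and all 5′ to 3′.
Aars: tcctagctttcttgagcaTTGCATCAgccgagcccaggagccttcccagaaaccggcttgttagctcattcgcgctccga
Gars: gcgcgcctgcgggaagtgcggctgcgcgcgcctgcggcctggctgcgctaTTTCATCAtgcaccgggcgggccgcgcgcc
Tars: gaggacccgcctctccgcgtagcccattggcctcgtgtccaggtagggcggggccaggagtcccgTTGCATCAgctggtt
Tars2: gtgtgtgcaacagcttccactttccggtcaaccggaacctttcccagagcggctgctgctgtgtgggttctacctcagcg
Yars: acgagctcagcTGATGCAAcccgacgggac
Iars: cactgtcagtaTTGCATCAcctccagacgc
The match lay 112 to 105 bases before the start in *Aars*, 30 to 23 before it in *Gars* and 15 to 8 before it in *Tars*. It lay at bases 4 to 11 after the start in *Yars* and 8 to 15 in *Iars*, and *Aars* had another at 10 to 17. *Aars*, *Tars* and *Iars* share the same 8 letters, and those of *Yars* are their reverse complement. The 8 cytosolic genes whose windows held no match had log2 ratios from -1.11 (*Mars*) to 1.0 (*Sars*). By a list of synthetases known as ATF4 targets, chosen with earlier results of these data known, 5 of the 8 with a window held the motif. Of the 5 other cytosolic genes 0 did.

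The 13 cytosolic genes of that ATF4 list had a median log2 ratio of 0.86 at 4 h, with 9 higher (69.2%, beside 24.5% of all genes) and 1 lower (7.69%, beside 17.1%). The 7 other cytosolic genes had a median of 0.33, with 1 higher (*Rars*, 14.3%) and 0 lower. The list rests on general knowledge of ATF4 targets, but it was chosen with earlier results of these data known, so this contrast is a description only. Its 3 members within 1.5-fold of the control were *Lars* (0.34 ± 0.20), *Wars* (0.09 ± 0.20) and *Vars* (-0.19 ± 0.20), while the lower one was *Mars*. Of 24 other genes of the integrated stress response, 19 were higher (82.6% of the 23 with a ratio or a bound) and 1, *Stc2*, was lower at 4 h, and the median over the 22 with a measured ratio was 1.62. Among them were *Atf4* itself, with a log2 ratio of 1.68 ± 0.20, *Trib3*, an inhibitor of ATF4 activity, with 2.44 ± 0.20, and *Asns*, for asparagine synthetase, with 1.80 ± 0.20. The amino acid transporter genes *Slc7a1* and *Slc3a2* had 3.15 ± 0.20 and 2.57 ± 0.20, and *Mthfd2*, for an enzyme of mitochondrial folate metabolism, had 2.66 ± 0.21. Other genes of this list stayed within 1.5-fold of the control at 4 h. They were *Eif4ebp1* (0.58 ± 0.20), *Ddit3* (0.52 ± 0.20) and *Vldlr* (0.20 ± 0.22). *Atf3* had no ratio, because its signal stayed near background at every time. The median of the list was -0.23 at 20 h and -0.06 at 32 h, over 22 genes each. At 32 h 8 of these genes were above and 8 below the control by more than the spot error. By 1.5-fold 3 were higher and 3 lower (13.6% each, beside 6% and 6.93% of all genes). *Trib3* remained higher, with 0.79 ± 0.20 at 20 h and 0.66 ± 0.20 at 32 h.

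The cytosolic genes below the threshold covered a range from *Farsa* (0.49 ± 0.20) to *Qars* (-0.26 ± 0.20), the glutamine enzyme. *Farsa* and *Farsb* (0.36 ± 0.20) encode both subunits of the phenylalanine enzyme, and their ratios lay within the spot errors of each other. *Hars*, for the histidine enzyme, had 0.33 ± 0.20. The genes nearest to the control were *Wars*, for the tryptophan enzyme, and *Dars*, for the aspartate enzyme. *Wars* had signals of 2.96, 3.05, 2.76 and 2.73 on the control, 4 h, 20 h and 32 h arrays. Its 32 h array lay below the control (-0.23 ± 0.20) and below the 4 h array (0.32 ± 0.20 for 4 h over 32 h) by more than the spot error. *Dars* had -1.49, -1.38, -1.33 and -1.44 (0.12 ± 0.21 at 4 h), with all 4 arrays close together. Scaling by the median of the array or by the spike-in controls put *Dars*, *Farsb*, *Hars*, *Kars*, *Lars* and *Wars* below the control, and *Wars* also lay below it with each of the 3 other scalings, *Dars* and *Kars* with 2 of them. No cytosolic or mitochondrial gene past the threshold changed side under any setting tried.

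*Mars*, for the methionine enzyme, which also charges the initiator tRNA of the cytosol, was the exception among the cytosolic genes. Its scaled log2 signal was 1.25 in the control, 0.13 at 4 h, 1.07 at 20 h and 1.02 at 32 h, so that the 4 h array alone was low, 2.16-fold below the control (log2 ratio -1.11 ± 0.20). *Mars* (*Mars1* in RefSeq) is the neighbor of *Ddit3*, the gene of the stress transcription factor CHOP, on the opposite strand, and the 3′ ends of the annotated genes overlap by 71 bases. The *Mars* element (chr10:126733940-126733999 in mm9, minus strand) lies 1119 bases from the *Ddit3* element on the plus strand. *Ddit3*, named here for this position after its values were seen, had log2 ratios of 0.52 ± 0.20 at 4 h, -0.41 at 20 h and -0.08 at 32 h.

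8 of the cytosolic enzymes are held together with 3 scaffold proteins in the multisynthetase complex. Their median log2 ratio at 4 h was 0.26, with 3 higher (*Iars*, *Rars* and *Eprs*, 37.5% beside 24.5% of all genes) and 1 lower (*Mars*, 12.5% beside 17.1%), and that of the 12 cytosolic genes outside the complex was 0.81, with 7 higher (58.3%) and 0 lower. Of the scaffold genes, *Eef1e1* was higher (1.12 ± 0.20), *Aimp1* was lower (-0.65 ± 0.20) and *Aimp2* was near the control (0.03 ± 0.20). The fold of the catalytic domain, class I or class II, was also compared. *Eprs*, which holds an enzyme of each class, was counted in class I. The medians were 0.52 for 10 class I and 0.68 for 10 class II genes of the cytosol, and -0.86 for 9 class I and -0.80 for 6 class II genes of mitochondria. These medians are given without a test.

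Among the mitochondrial genes, *Fars2* had the lowest ratio at 4 h. It encodes the mitochondrial phenylalanine enzyme, which is a single chain unlike the cytosolic one, and its element lies at chr13:36629402-36629461 in mm9. The scaled log2 signal was 1.31 in the control, -0.16 at 4 h, 1.59 at 20 h and 1.62 at 32 h, and the 4 h array alone was low, 2.76-fold below the control (log2 ratio -1.46 ± 0.20). *Tars2*, for the threonine enzyme, had signals of 3.11, 1.89, 3.32 and 3.30 and a log2 ratio of -1.23 ± 0.20. *Lars2*, for the leucine enzyme, had signals of 0.22, -0.87, 0.51 and 0.56 and a log2 ratio of -1.09 ± 0.21. In these 3 genes the 20 h and 32 h arrays lay slightly above the control.

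6 further mitochondrial genes were past the threshold in the same direction. *Cars2*, for the cysteine enzyme, had signals of -1.21, -2.22, -1.06 and -1.15 and a log2 ratio of -1.01 ± 0.21. *Iars2*, for isoleucine, had 0.39, -0.60, 0.34 and 0.43 with a log2 ratio of -0.99 ± 0.20, and *Sars2*, for serine, had -0.32, -1.22, -0.63 and -0.51 with -0.90 ± 0.21. Of these, *Sars2* remained below the control at 20 h by more than its spot error (-0.31 ± 0.21). *Vars2*, for valine, had -0.89, -1.77, -0.66 and -0.69 with a log2 ratio of -0.88 ± 0.21, and *Rars2*, for arginine, had 1.10, 0.24, 1.06 and 1.02 with -0.86 ± 0.20. *Aars2*, for alanine, had 0.40, -0.31, 0.48 and 0.48 with -0.70 ± 0.20. The 4 h array was the lowest of the 4 in every one of these genes.

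*Hars2*, for the histidine enzyme, missed the threshold narrowly with a log2 ratio of -0.58 ± 0.20 (1.49-fold below the control), and *Pars2*, for proline, had -0.52 ± 0.20. *Hars* and *Hars2* are next to each other on opposite strands with 0 annotated genes between them, and at 4 h they lay on opposite sides of the control. *Ears2*, for the glutamate enzyme, had signals of -0.61, -1.07, -1.15 and -1.19, with log2 ratios of -0.46 ± 0.21, -0.54 ± 0.21 and -0.58 ± 0.21 at 4 h, 20 h and 32 h. It was the 1 gene of the 35 that lay on the same side of the control by more than its spot error on all 3 arrays.

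3 mitochondrial genes lay above the control at 4 h. *Mars2*, for the methionine enzyme, whose product is formylated to start mitochondrial translation, had signals of -3.21, -1.62, -3.30 and -3.51, a 3.0-fold higher signal at 4 h (log2 ratio 1.59 ± 0.24, element at chr1:55295642-55295701 in mm9). *Yars2*, for tyrosine, had 0.99, 1.75, 0.88 and 0.68 with a log2 ratio of 0.77 ± 0.20. In both genes only the 4 h array was high, and *Mars2* was the dimmest of the measured synthetase genes in the control. *Wars2*, for tryptophan, was near the control with signals of 0.27, 0.63, 0.54 and 0.45 and a log2 ratio of 0.36 ± 0.20, and it lay below the control with scaling by the median or by the spike-in controls.

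The cytosolic and mitochondrial enzymes of the same amino acid could be set side by side for 12 of 13 amino acids, since *Nars2* had no ratio. At 4 h the cytosolic ratio was the higher one in 10 pairs, in all 10 by more than the combined spot error, and the median difference was 1.59 on the log2 scale. The largest difference was that of *Tars* and *Tars2*, 2.09 ± 0.29. It was followed by *Iars* and *Iars2* with 1.99 ± 0.29 and by *Sars* and *Sars2* with 1.90 ± 0.29. For tyrosine both enzymes were higher at 4 h and the cytosolic one by more, with a difference of 1.07 ± 0.31. For valine both lay below the control, *Vars2* by more, with a difference of 0.69 ± 0.29.

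The methionine pair ran the other way, and by the largest amount of all pairs, with a difference of -2.70 ± 0.31 between *Mars* and *Mars2*. This difference includes the dim control signal of *Mars2*. For tryptophan the difference of -0.27 ± 0.29 was within the spot error. At 20 h the cytosolic ratio was higher in 2 pairs and the mitochondrial ratio in 10, with a median difference of -0.21, and at 32 h these were 4 and 8, with -0.27. 1 cytosolic and 4 mitochondrial enzymes were higher by more than the spot error at 20 h, and 1 and 5 at 32 h.

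**Figure D3:**
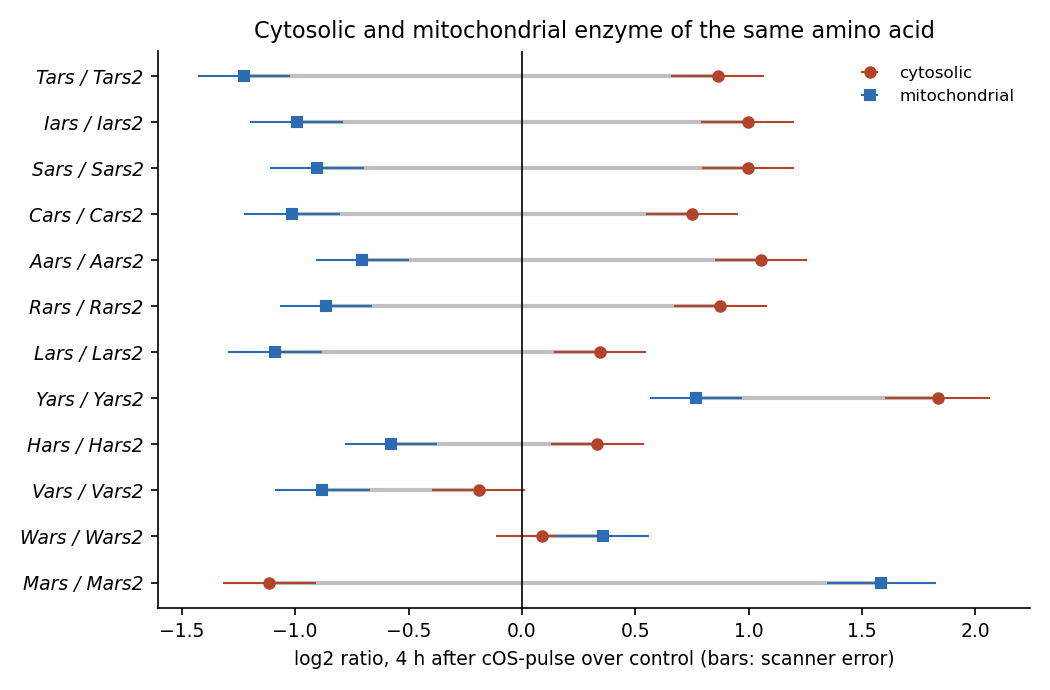
Log2 ratio at 4 h over the control (horizontal axis) of the cytosolic (circle) and the mitochondrial (square) enzyme for each of 12 amino acids, with the scanner error of the spots as bars. The circle lies to the right of the square in 10 pairs, and the methionine pair at the bottom is reversed by 2.70.

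At 20 h and 32 h all 35 genes lay within 1.5-fold of the control. The cytosolic median was -0.18 at 20 h (range -0.37 to 0.29) and -0.20 at 32 h (range -0.55 to 0.18), and the mitochondrial median was -0.04 (range -0.54 to 0.29) and 0.04 (range -0.58 to 0.33). Of all genes, 4.61% were higher and 7.65% lower at 20 h, and 6% were higher and 6.93% lower at 32 h. The lowest ratios were those of *Ears2* and of *Rars*, which was above the control at 4 h and below it at 20 h (-0.37 ± 0.20) and 32 h (-0.55 ± 0.21). Without scaling between arrays the medians at 20 h were 0.15 for cytosolic and 0.29 for mitochondrial genes.

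For the synthetase genes the 20 h and 32 h arrays differed little, with log2 ratios of 20 h over 32 h between -0.12 and 0.21. None of the 35 genes was beyond the spot error. Of all 14545 genes with a measured ratio, 1177 were higher and 1328 lower at 20 h by more than that error. When the 20 h array took the place of the control, the cytosolic median at 4 h was 0.63, with 11 higher and 1 lower, and the mitochondrial median was -0.78, with 2 higher and 9 lower. With the 32 h array these were 0.65 and -0.78 with the same counts. All these comparisons share the 4 h array.

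**Figure D4:**
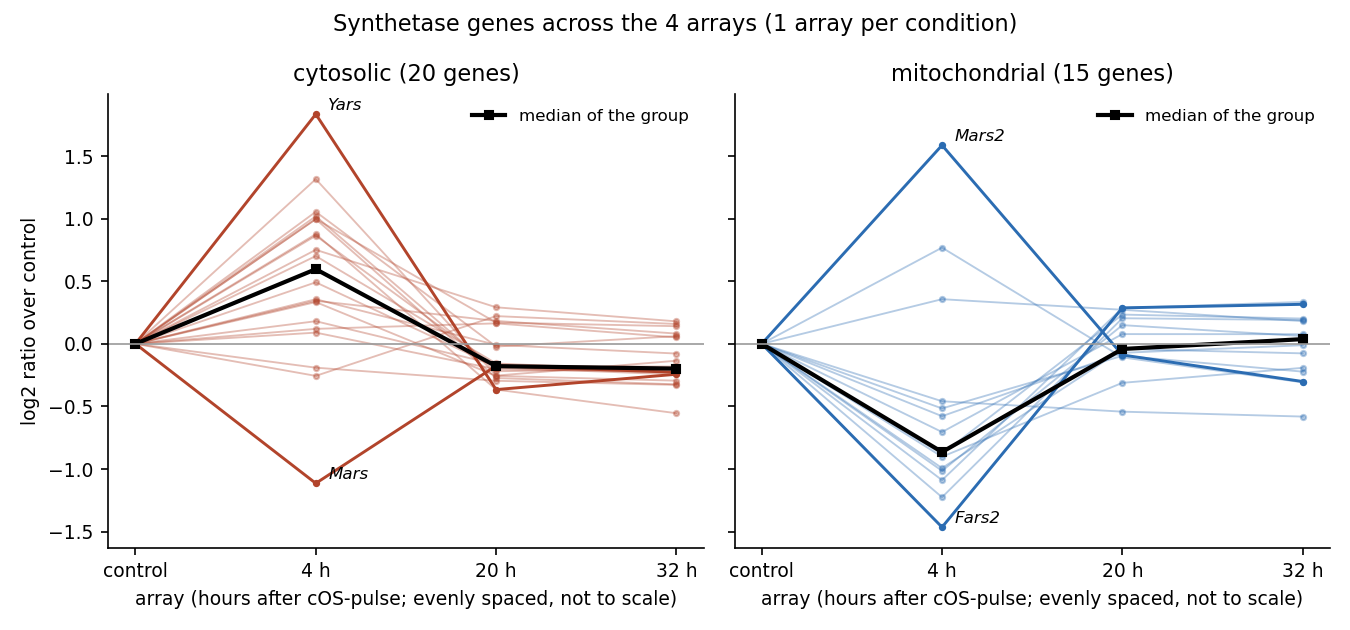
Log2 ratio over the control of each cytosolic (left) and mitochondrial (right) synthetase gene on the 4 arrays, with the group median in black; the time axis is evenly spaced and not to scale. Lines spread at 4 h, with *Yars* and *Mars2* at the top and *Mars* and *Fars2* at the bottom, and lie within 0.6 of the control at 20 h and 32 h.

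Other genes of mitochondrial translation were measured from a list of 14. Their median log2 ratio at 4 h was -0.01, with 1 higher (7.14%, beside 24.5% of all genes) and 5 lower (35.7%, beside 17.1%). The lower ones were *Mtrf1*, for a mitochondrial release factor (-3.64 ± 0.32), *Qrsl1*, for a subunit of the enzyme that makes glutaminyl-tRNA in mitochondria from the wrongly charged product of EARS2 (-1.31 ± 0.21), and, named after their values were seen, *Trmu* (-0.75 ± 0.21) and *Mto1* (-0.73 ± 0.21), both for enzymes that modify mitochondrial tRNAs, and *Tsfm*, for an elongation factor (-0.62 ± 0.20). The higher one was *Mrrf*, for the ribosome recycling factor, with 1.15 ± 0.28. *Mrrf* was dim in the control, with a signal of -4.05 where the lowest detected one was -4.76. The signal of *Mtrf1* fell from -0.87 in the control to -4.51 at 4 h, where the lowest detected one was -4.94. *Mtrf1* was also below the control at 20 h (-2.29) and 32 h (-2.37). The median of the mitochondrial synthetases (-0.86) thus lay below that of this list, without a test of the difference. The list median depended on the choice of element. The brightest elements of *Gfm2* and *Mtif3* gave 0.01 ± 0.21 and 0.09 ± 0.21, and dimmer ones gave -0.72 ± 0.21 and -0.43 ± 0.22.

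The 9 listed genes of cytosolic elongation and termination had a median of 0.50 at 4 h, close to the 0.60 of the cytosolic synthetases. 3 of them were higher (33.3%, beside 24.5% of all genes), *Etf1*, for the release factor eRF1 (1.69 ± 0.20), and, named after their values were seen, *Eif5a* (0.62 ± 0.20) and *Gspt1* (0.60 ± 0.20), and 1 was lower (11.1%, beside 17.1%), *Eef2k*, for the kinase that inhibits elongation factor 2. Both shares were near those of all genes. A dimmer element of *Gspt1* lay on the other side of the control (-0.52 ± 0.21), so its direction was not settled. At 20 h and 32 h the medians of these 9 genes were -0.21 and -0.27.

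9 synthetase genes had more than 1 array element, and 7 of them had at least 2 elements with a measured ratio at 4 h. In none of the 7 did elements lie on opposite sides of the control beyond their spot errors, and in 4 the ratios differed by more than the errors. The 2 elements of *Cars2* gave -1.01 and -0.51, those of *Iars2* -0.99 and -0.36, and those of *Wars2* 0.36 and -0.12, and the 3 elements of *Farsa* lay between 0.36 and 0.84. The dimmer elements of *Cars2* and *Iars2* were therefore below the 1.5-fold threshold, and 1 of the dimmer elements of *Farsa* was above it. The elements of *Tars2* (-1.23 and -1.25), *Vars2* (-0.88 and -1.16) and *Wars* (0.09 and 0.22) lay within the errors of each other.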

How the data were processed

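RNA of NIH-3T3:Per2-Luc fibroblasts was measured on 4 one-color arrays (Mouse GE 4x44K v2), 1 per condition. The authors deposited intensities of each spot from Agilent Feature Extraction 10.7.3.1 (version from the file headers), with background subtracted. They also deposited these intensities as a table, in which each array had been divided by a constant of its own. Positions are those of the array annotation (mm9).

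From the deposited intensities, log2 processed signals of spots without a feature outlier flag were averaged per element, less the 75th percentile of that array. Detection required the well-above-background flag on 50% or more of the spots of an element. Each gene took its brightest element, by the mean over all arrays. Where 1 array of a pair detected it, the ratio was a bound, taken against the dim signal or the lowest detected signal of that array, whichever was higher. Medians use measured ratios, and counts and percentages over all genes include bounds. Gene names that only repeat an element name were left out. The paired SAM test named in the methods was not run, since there was 1 array per condition.

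Values on all arrays are given for genes at least 1.5-fold from the control at any time and for the 2 genes of each compartment nearest to it at 4 h. From other lists, genes at least 2-fold from the control may be named. The other named genes (*Stc2*, *Atf3*, *Eif4ebp1*, *Vldlr*, *Ddit3*, *Aimp1*, *Aimp2*, *Gfm2*, *Mtif3*, *Trmu*, *Mto1*, *Tsfm*, *Eif5a*, *Gspt1*, *Eef2k*, *Cd3e*, *Pecam1*, *Kdr*) were named after their values were seen. The members and lists were chosen with earlier results of these data known.

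Alternatives were 5 other scalings, normexp background correction (offset 50, limma 3.58.1, R 4.3.3), detection and outlier filters, the median over elements, the deposited table and a 2-fold threshold. Added after seeing the data were removal of trends with signal (20 bins) and with GC content, the 20 h or 32 h array as baseline, the 28 brighter genes only, and subtraction of the median of all genes. In simulated data for 4 h over control, 193 of 200 elements changed 4-fold (96.5%) of 39429 were recovered and 0 unchanged ones were called. The simulated noise was smaller than the spot errors of the data and held no differences between cultures. It therefore cannot show how often an unchanged gene passes 1.5-fold in the data. Recovery was scored at the 1.5-fold threshold and for 4-fold changes only, so it does not show how often smaller changes are found. Python 3.11.15, numpy 2.4.6 and pandas 2.3.3 were used.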

Additional observations from a re-analysis of the deposited data

Results flagged for a closer look

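*Rars*, for the cytosolic arginine enzyme, lay above the control at 4 h and below it at 32 h, by more than 2 times its spot error both times. Its log2 ratio was 0.88 at 4 h and -0.55 ± 0.21 at 32 h. With scaling by the spike-in controls or without scaling the value at 32 h was -0.40 and -0.38, which is less than 2 times the spot error. With 1 array per condition the difference between the times was not tested.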

How the results depend on the processing

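The sign of both medians at 4 h and of their difference was kept under all settings tried, and no gene past the 1.5-fold threshold changed side. Scaling by the median of the array gave a cytosolic median of 0.23 at 4 h with 6 higher and 2 lower genes, and a mitochondrial median of -1.23 with 1 higher gene. The spike-in controls gave 0.19 with 6 higher and 3 lower, and -1.27 with 1 higher. Without scaling the medians were 0.32 and -1.15 with 1 mitochondrial gene higher, and at 20 h 0.15 and 0.29. Normexp background correction reduced the difference between the medians at 4 h to 1.24. A 2-fold threshold left 4 cytosolic genes higher, and 1 mitochondrial gene higher and 4 lower. Among the 28 brighter genes, to which *Yars* and *Mars2* do not belong, 1 mitochondrial gene was higher. The cause of these differences was not tested, except that the threshold and the smaller list count fewer genes by construction. Each scaling moves all genes of an array by 1 amount, apart from quantile normalization. The difference of the medians ranged from -0.23 to -0.14 at 20 h and from -0.27 to -0.16 at 32 h. No paired analysis was possible because each group had 1 array. The number of arrays limits the precision.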
